A study of Mus musculus with 12 samples.

Results

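Dorsal root ganglia (DRG) of mice kept for 10 days in an enriched environment (EE) were compared with DRG of mice kept in standard housing (SH), by sequencing RNA of whole ganglia. The members are the 6 whole-ganglion libraries among the 12 of the study, 3 per housing, taken from the table of read counts for whole DRG. Each EE library was paired with the SH library of the same replicate number, because the labels place both in the same sequencing lane (lane 4, 5 or 6). The mice were C57BL/6, aged 5 to 8 weeks, with no genetic change named in the labels. Every library held the sciatic ganglia (L4-L6) of 2 mice in a pool, so single mice cannot be told apart. The other 6 libraries came from large neurons cut out of DRG sections by laser, and they serve below as a comparison. Column names in the deposited tables carry the word Sham in both housings, which the labels do not explain. The labels do not say whether pools of a group came from separate cages. A p-value here therefore refers to the scatter among these 6 libraries, part of which may be technical.

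A dorsal root ganglion contains sensory neurons, which carry touch, position, heat, itch and pain signals to the spinal cord. Satellite glia wrap each cell body, Schwann cells wrap the axons, and macrophages, fibroblasts, endothelial cells and blood lie between them. Enriched housing gives animals toys, space and exercise, and it is widely used to study experience-driven changes in neurons. In RNA from whole ganglia, fewer cells of a type and less RNA per cell cannot be told apart.

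The libraries carried the RNA of a ganglion. By the authors' FPKM, which divides reads by gene length, the highest protein-coding genes were the mitochondrial genes mt-Co1, mt-Co2, mt-Co3, mt-Cytb, mt-Nd1, mt-Nd4, mt-Nd2, mt-Nd3 and mt-Nd5 together with Sncg, the gene of gamma-synuclein, which is abundant in sensory neurons. Mean FPKM over the 6 libraries was 11774 for mt-Co1 and 2540 for Sncg. The neurofilament gene Nefl had a mean of 5063 CPM in SH (read counts scaled to the library's TMM-adjusted total) and 4559 in EE. Of 16 markers of oligodendrocytes and spinal cord, 13 had reads and summed to 82.3 to 94.1 CPM per library, of which Aspa made up 43.1%, while Opalin, Olig2 and Nkx2-2 had no read in any library. Reads in genes ranged from 11343579 to 17036481 per library.

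Housing separated few genes in whole ganglia. Of 15845 tested genes, 32 (0.202%) passed an adjusted p of 0.05 in the fit with the lane pairs as a block, 23 of them higher in EE (0.145%) and 9 lower (0.0568%). Without the pairs, 1 gene passed (0.00631%), the transcription factor gene Zbtb16. In the paired fit, 823 genes had an unadjusted p under 0.05, where 5% of the tested genes is 792. Most changes were small: the 32 genes ranged from a log2 fold change of -1.35 for Hes5 to 2.31 for Mmp13.

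Most genes changed sign between pairs. In 3731 genes (23.5%) the change (EE minus SH, log2 of CPM plus 0.5) had 1 sign in all 3 pairs, with 1866 genes higher (11.8%) and 1865 lower (11.8%). Any choice of 2 pairs shared the sign in 47.47 to 50.1% of genes. The groups did not overlap in 1185 genes (7.48%), with EE above SH in 505 and below in 680. Changes of at least 1.1-fold in every pair were seen in 294 genes upward and 288 downward, changes of at least 1.5-fold in 6 and 1, and changes of at least 2-fold in 0. The share of 1 sign in 3 pairs was 22.8% among genes with an average log2 CPM of at least 3 and 19.4% at 6 or more, so highly expressed genes did not agree more often.

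Across the 14454 genes with a mean log2 CPM above 1, Spearman's rho between the changes of 2 pairs was -0.03, -0.002 and 0.01, as a description over genes that share the same libraries. The changes of each pair also varied with base composition: rho with GC content was -0.11, 0.09 and -0.42 in pairs 1, 2 and 3, and rho with transcript length was 0.29, -0.14 and 0.03. The part of these relations in single genes was not tested beyond a fit with offsets for GC content and length, which called 25 genes, 22 of them among the 32. That fit ended the calls of Agxt2l1, Cyr61, Ddit4, Dpep1, Hba-a1, Mki67, Ngp, Plekha7, S100a9 and Thbs4.

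**Figure D1:**
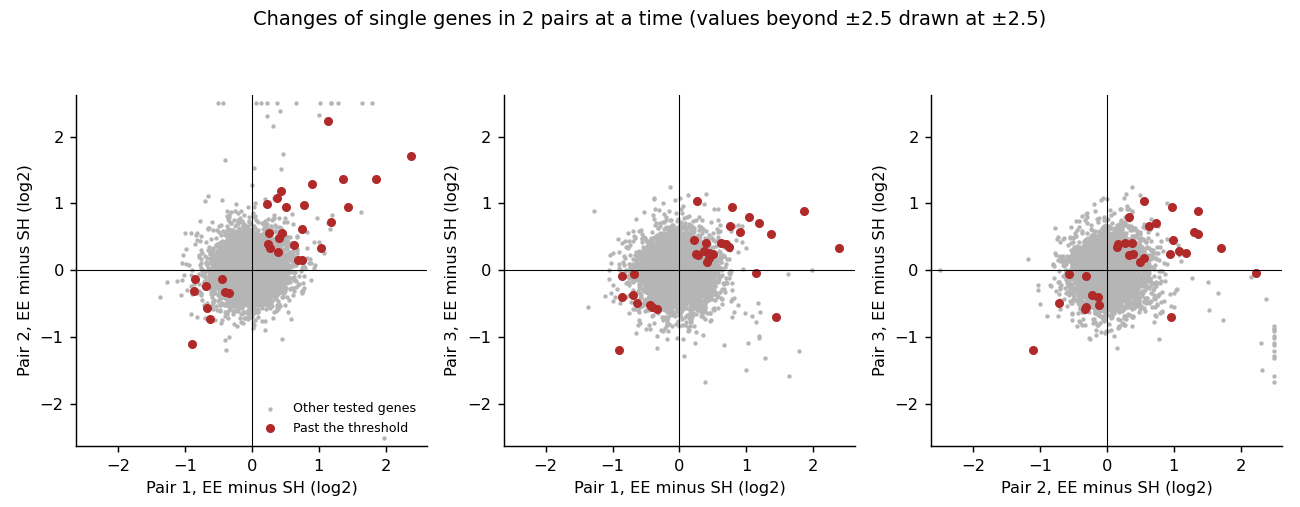
Change of each gene (EE minus SH, log2 of CPM plus 0.5) in 1 lane pair against another, for genes with an average log2 CPM of at least 1 and all 32 genes past the threshold (red). The grey cloud is round in every panel, with Spearman's rho between -0.03 and 0.01. Of the 32 red genes, 30 lie on the same side of 0 in all 3 pairs, but they were chosen by the fit to these same pairs, which favours a shared sign.

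Within the 32 genes, 30 had the same sign in every pair, and Mmp13 and Hba-a1 did not. The mean change was more than 2 standard errors over the pairs in 29. Since the 32 were chosen by the fit to these same pairs, that choice favours both counts, which are no separate evidence of repeatable changes. Groups separated in 11 of the 32, against 7.48% of all tested genes, and the same choice favours this count too. EE was above SH in Zbtb16, Mertk, Ppbp, Stard4, Id1 and Nt5e and below it in Cxx1a, Gm16832, Hes5, Acer2 and Plekha7. Pair 1 held the largest change for 14 genes, pair 2 for 12 and pair 3 for 6. The fit borrows most of its spread from all genes (64.6 prior against 2 residual degrees of freedom), so its standard error can differ from that over the 3 pairs. The latter was wider for most of the 32 genes, such as 0.60 against 0.29 for Ppbp and 0.28 against 0.15 for Zbtb16. It was 0.23 against 0.08 for Ddit4 and 0.21 against 0.09 for Pmp2. It was narrower only for Stard4 (0.04 against 0.07), Mertk, Slc4a1, Hes5, Mpo, Acer2, Ccrn4l, Sfrp4 and Nt5e. For most genes, the standard error of the fit printed below is thus smaller than that over the pairs. Elsewhere the standard error over the pairs is given only for Plin4, Mertk and Hba-a1. Chi3l3, Mertk, Plin4, Stard4 and Zbtb16 stayed past the threshold without each pair in turn and under 7 other paired count analyses of the 6 libraries (DESeq2, limma-voom, 2 other scalings, no filter, offsets for GC content and length, and robust variance estimates). None of the 5 passed with limma on FPKM.

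**Figure D2:**
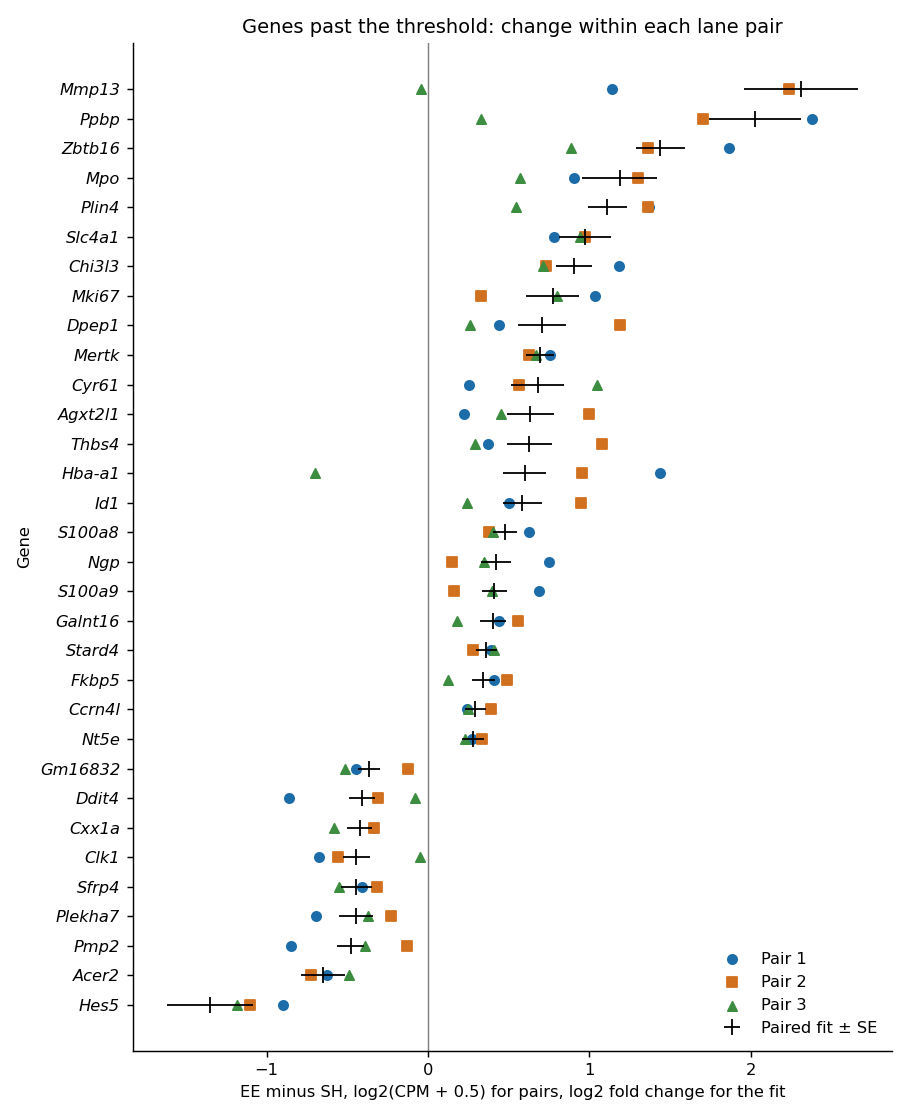
Change of the 32 genes past the threshold in each lane pair (symbols, EE minus SH, log2 of CPM plus 0.5) and in the paired fit (black, log2 fold change ± SE). The 3 symbols stand on 1 side of 0 for 30 genes, and the pair 3 value of Hba-a1 lies at -0.70.

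Zbtb16 and Plin4 had the smallest p-values. Zbtb16 encodes a zinc finger repressor that glucocorticoids induce in many cell types. Its level was 3.00, 5.12 and 5.83 CPM in SH and 12.2, 14.0 and 11.2 CPM in EE, for replicates 1 to 3. Every EE library was above every SH library, and the gain was 2.71-fold (log2 fold change 1.44 ± 0.15 SE, edgeR adjusted p = 7.09e-10). The changes in pairs 1, 2 and 3 were 1.86, 1.36 and 0.88. Zbtb16 is located on the minus strand at chr9:48654297-48836222 (GRCm38). Without the pairs its adjusted p was 0.046, and it ranged from 0.032 to 0.13 when single libraries were left out of that fit, passing 0.05 only without SH replicate 3.

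Plin4 encodes a coat protein of lipid droplets. It had 4.30, 14.8 and 13.1 CPM in SH and 11.9, 38.9 and 19.4 CPM in EE. EE was higher in each pair, but the groups overlapped, since the EE library of pair 1 was below the SH libraries of pairs 2 and 3. The fold change was 2.16 (log2 1.11 ± 0.12 SE, adjusted p = 7.09e-10 by edgeR), and the standard error over the pairs was 0.27. Plin4 is located at chr17:56100591-56109803 on the minus strand.

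Both genes belong to a list of 25 glucocorticoid-responsive genes. Steroid hormone released from the adrenal gland binds the glucocorticoid receptor, which enters the nucleus and switches on such genes. Of the 25, Zbtb16, Plin4 and Fkbp5 rose, Ddit4 fell, and 21 did not pass the test. Among all tested genes, 0.145% rose and 0.0568% fell. Of the list, 6 were higher and 3 lower in all pairs, where each direction held 11.8% of all tested genes. The median log2 fold change was 0.07 (pair medians 0.01, 0.17 and 0.07), where all tested genes had a median of 0.002.

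Fkbp5, a co-chaperone that lowers the receptor's affinity for hormone, had 55.2, 73.6 and 78.9 CPM in SH and 73.5, 104 and 85.9 in EE. It rose in each pair, by 0.41, 0.49 and 0.12 on the log2 scale, while the groups overlapped (log2 fold change 0.34 ± 0.07 SE, edgeR adjusted p = 0.0086). Its call ended without pair 1 (adjusted p = 0.23) and without pair 2 (0.31). Ddit4, a stress-induced inhibitor of mTORC1 signalling, had 79.0, 91.7 and 72.7 CPM in SH and 43.3, 73.9 and 68.8 in EE. Most of that fall lay in pair 1 (-0.86, against -0.31 and -0.08), and the call was lost without pair 1 (adjusted p = 0.83) and with robust variance estimates (0.34). Well-known members of the list did not pass: Tsc22d3 had pair changes of -0.30, -0.11 and 0.004 (adjusted p = 0.95), Sgk1 had -0.40, 0.18 and 0.11 (1.00), and Per1 had -0.33, -0.001 and -0.32 (0.64). Over the whole list, 17 of 25 members had a positive log2 fold change, where 50.9% of all tested genes did. In pairs 1, 2 and 3 alone, 13, 16 and 16 members were positive, so its members did not all move together. This list, like the others here, was written with earlier results of these data known. Its counts are therefore no test of enrichment.

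**Figure D3:**
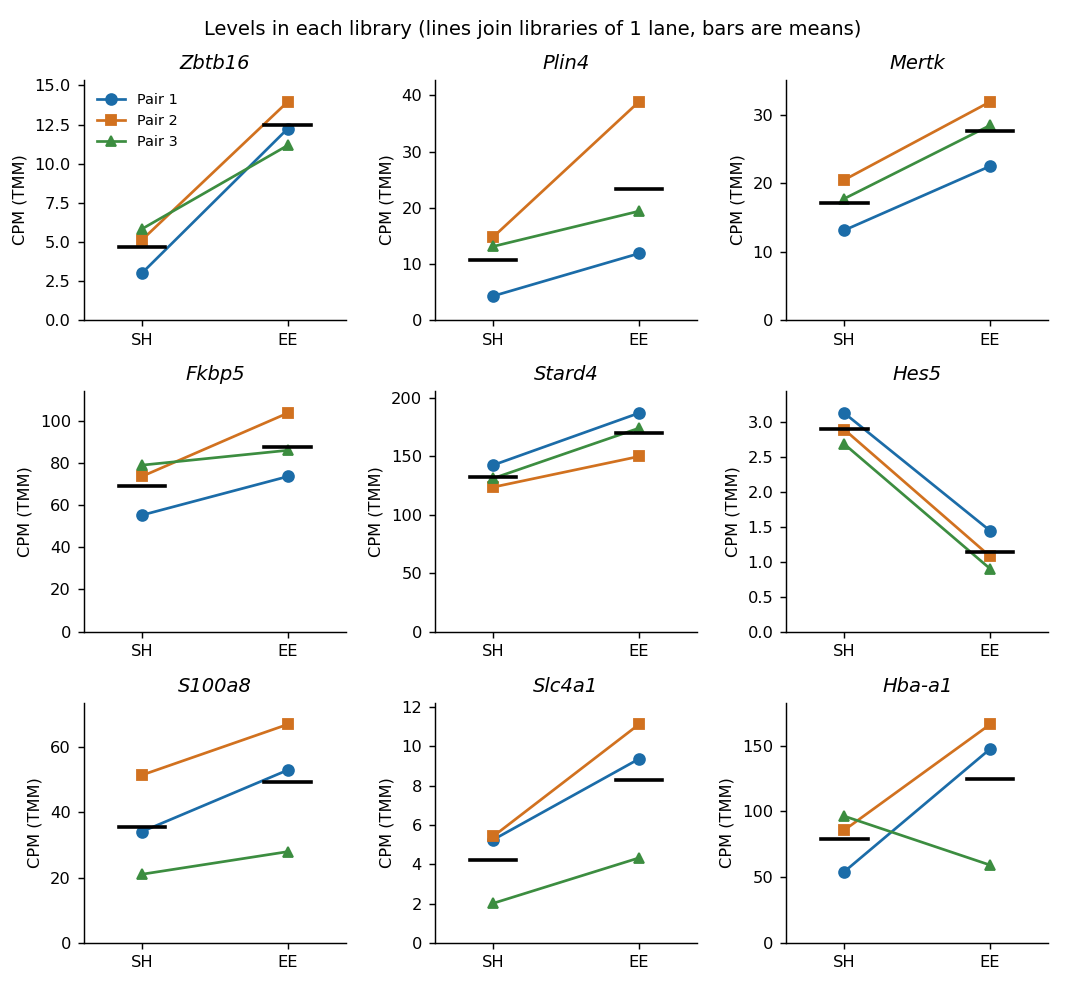
TMM-normalised CPM of 9 of the genes past the threshold in SH and EE libraries, with lines joining the libraries of 1 lane and black bars at the group means. The lines rise in every pair for Zbtb16, Plin4, Mertk, Fkbp5, Stard4, S100a8 and Slc4a1 and fall for Hes5, and for Hba-a1 pair 3 runs against pairs 1 and 2.

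Stard4 carries cholesterol between membranes, and its gene is switched on when cells sense low sterol. It had 143, 124 and 131 CPM in SH and 187, 150 and 174 CPM in EE. The groups did not overlap, and the pairs rose by 0.39, 0.28 and 0.41 (log2 fold change 0.36 ± 0.07 SE, edgeR adjusted p = 0.0012). Of 27 measured genes of cholesterol synthesis and sterol sensing, Stard4 alone passed the test, 16 were higher in all pairs and 0 lower in all pairs, against 11.8% and 11.8% of all tested genes.

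The median of the cholesterol list was 0.11, with pair medians of 0.06, 0.10 and 0.18, and 25 of 27 members had a positive log2 fold change. Mvd, an enzyme of the mevalonate pathway, and Insig1, which holds back sterol sensing, had log2 fold changes of 0.28 and 0.26 with adjusted p of 0.071 and 0.13. Their groups did not overlap: Mvd had 47.5, 45.8 and 48.7 CPM in SH and 58.0, 53.1 and 62.1 in EE. Hmgcs1, the most abundant member by reads, had pair changes of -0.03, 0.05 and 0.25. In the list of 14 fatty acid synthesis and desaturation genes, 0 passed, 6 were higher in all pairs and 1 was lower, against the same 11.8% each way. Fasn, the fatty acid synthase, had 245, 241 and 265 CPM in SH and 306, 286 and 266 in EE (adjusted p = 0.46).

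Ccrn4l encodes nocturnin, a rhythmic phosphatase with a part in lipid metabolism. It had 377, 268 and 347 CPM in SH and 446, 351 and 412 CPM in EE. It was higher in each pair by a similar amount, 0.24, 0.39 and 0.25 (log2 fold change 0.29 ± 0.06 SE, edgeR adjusted p = 0.010), and the call ended without pair 2 (0.31). Acer2, an alkaline ceramidase of the Golgi, had 8.89, 13.5 and 10.7 CPM in SH and 5.58, 7.98 and 7.50 CPM in EE. All EE libraries were below all SH libraries (log2 fold change -0.65 ± 0.14 SE, adjusted p = 0.0088), and the call ended without pair 1 (0.13) and without pair 2 (0.24).

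Mertk rose by a similar amount in every pair. It encodes a receptor tyrosine kinase through which phagocytes and satellite glia recognise dying cells, with Gas6 and protein S (Pros1) as bridges. The level was 13.1, 20.5 and 17.7 CPM in SH and 22.5, 31.9 and 28.5 CPM in EE. The groups did not overlap, and the pairs rose by 0.75, 0.63 and 0.67 (log2 fold change 0.69 ± 0.09 SE, edgeR adjusted p = 2.18e-07; standard error over the pairs 0.04). Mertk is located on the plus strand at chr2:128698956-128802894. Of 12 tested genes of clearance receptors and their bridges, Mertk was the only one past the threshold, and the list median was -0.02. Its ligand gene Gas6 had 172, 184 and 177 CPM in SH and 148, 174 and 159 in EE (log2 fold change -0.15, adjusted p = 0.85). Thus the receptor gene changed without a called change in the genes of its bridges.

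Hes5, a repressor that Notch signalling induces and that marks glial cells, fell. It had 3.12, 2.89 and 2.68 CPM in SH and 1.44, 1.07 and 0.90 CPM in EE. Every EE library was below every SH library, and the fall was 2.55-fold (log2 fold change -1.35 ± 0.27 SE, edgeR adjusted p = 0.0031; pair changes -0.90, -1.11 and -1.19). The gene is near the low end of expression, and DESeq2 did not call it (adjusted p = 1.00). Of 17 Notch targets and pathway genes, Hes5 was the only one past the threshold, 4 were lower and 1 higher in all pairs (11.8% each way among all tested genes), and the median was -0.03. Nrarp, another Notch target, had 25.0, 25.8 and 22.9 CPM in SH and 20.5, 21.2 and 19.3 in EE, with no overlap and an adjusted p of 0.39. Hes1 had pair changes of 0.31, -0.08 and -0.02.

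Promoter sequences were read from RefSeq (GRCm38.p6) as 250 bases before and 50 after the start of each gene, and 24 of the 32 genes matched. The other 8, Clk1, Id1, Plekha7, Pmp2, Sfrp4, Slc4a1, Stard4 and Zbtb16, had no matched promoter and were not searched. The Notch motif TGGGAA (bound by RBPJ) was searched on both strands and was present in 8 of the 24 genes, counting a gene when any of its promoters held the motif, where 28.3% of 27025 genes with a promoter hold it. Hes5 is shown because it is the textbook Notch target among the genes that fell. It holds the motif at bases -226 and -82 from the start of the gene, in capitals (chr4:154960673-154960972, plus strand); the first match is on the opposite strand.
Hes5: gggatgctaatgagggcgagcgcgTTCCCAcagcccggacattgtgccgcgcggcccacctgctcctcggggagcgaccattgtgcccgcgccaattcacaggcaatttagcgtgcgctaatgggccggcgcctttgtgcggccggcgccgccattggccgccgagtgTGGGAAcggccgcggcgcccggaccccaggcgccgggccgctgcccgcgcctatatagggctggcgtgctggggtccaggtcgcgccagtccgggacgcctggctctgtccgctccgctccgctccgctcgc

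For the glucocorticoid receptor, the core palindrome ACANNNTGT was in 2 of the 24 genes, counted the same way, against 7.90% of all genes, and the half-site TGTTCT in 1, against 21.3%. The palindrome was in 4 of 23 matched genes of the glucocorticoid-responsive list, and the half-site in 3. Zbtb16 of that list and Stard4 of the cholesterol list were not searched, so nothing is known here of motifs in their promoters. The sterol motif TCACNCCAC was in 0 of the 24 genes and in 1 of 19 matched genes of the cholesterol list, against 1.44% of all. The 2 promoters of changed genes with the palindrome are shown, with it in capitals: S100a8 (chr3:90668821-90669120, plus strand, first base at 26) and Chi3l3, whose current symbol is Chil3 (chr3:106167515-106167814, minus strand, first base at -195).
S100a8: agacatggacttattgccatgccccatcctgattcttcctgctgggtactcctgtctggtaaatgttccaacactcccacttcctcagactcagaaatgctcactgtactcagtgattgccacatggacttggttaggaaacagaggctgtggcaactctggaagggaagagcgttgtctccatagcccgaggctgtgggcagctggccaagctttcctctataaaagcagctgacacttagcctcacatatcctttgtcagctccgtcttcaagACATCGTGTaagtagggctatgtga
Chil3: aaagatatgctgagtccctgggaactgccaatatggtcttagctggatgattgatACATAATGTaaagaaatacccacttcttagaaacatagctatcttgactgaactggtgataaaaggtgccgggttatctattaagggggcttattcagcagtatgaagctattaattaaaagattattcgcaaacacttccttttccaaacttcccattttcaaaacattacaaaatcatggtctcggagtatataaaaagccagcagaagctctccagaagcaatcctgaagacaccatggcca
A match describes letters in these windows, and binding was not measured.

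Few markers of glia passed the test. Of 20 satellite glia markers, 0 passed, 8 were lower and 3 higher in all pairs (11.8% each way among all tested genes), and the median was -0.04 (pair medians -0.03, -0.05 and -0.02). Ednrb, Apoe and Slc1a2, an endothelin receptor, a lipid carrier and a glutamate transporter, had log2 fold changes of -0.26, -0.17 and -0.33 with adjusted p of 0.13, 0.54 and 0.89. Of 20 markers of myelinating Schwann cells, Pmp2 fell and 19 did not pass. Pmp2, a lipid-binding protein of peripheral myelin, had 58.6, 32.2 and 36.6 CPM in SH and 32.2, 29.4 and 27.7 CPM in EE. SH replicate 1 stood above the rest, the log2 fold change was -0.48 ± 0.09 (SE), and the call ended without pair 1 (edgeR adjusted p = 0.65). In that pair the Schwann cell list as a whole had a median of -0.29, with 19 of 20 members below 0, against 0.07 and 0.06 in pairs 2 and 3; its part in the change of Pmp2 was not tested.

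8 of the 23 genes that rose belong to lists of blood, bone marrow or bone cells. These lists hold 53 tested genes, or 0.334% of all 15845, and 0.145% of all tested genes rose. The lists were written with earlier results of these data known, so these shares are no test of enrichment. The 8 genes are S100a8, S100a9, Ngp and Mpo of neutrophils, Slc4a1 and Hba-a1 of red cells, Ppbp of platelets and Mmp13 of bone and cartilage. Chi3l3, a chitinase-like protein of mouse myeloid cells, also rose, with 8.72, 18.3 and 6.76 CPM in SH and 20.4, 30.6 and 11.4 CPM in EE. Each pair rose (1.18, 0.73 and 0.71), and the fold change was 1.87 (log2 0.91 ± 0.11 SE, edgeR adjusted p = 1.02e-07). The groups overlapped because replicate 3 was low and replicate 2 high in both housings.

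S100a8 and S100a9 encode the subunits of calprotectin, the main cytosolic protein of neutrophils. S100a8 had 34.1, 51.5 and 21.0 CPM in SH and 53.0, 67.0 and 28.0 in EE, with pair changes of 0.63, 0.38 and 0.40 (adjusted p by edgeR 7.50e-05). S100a9 had pair changes of 0.69, 0.16 and 0.40, and the granule gene Ngp 0.75, 0.15 and 0.35. Mpo, the myeloperoxidase of immature granulocytes, had 1.88, 1.95 and 0.94 CPM in SH and 3.96, 5.52 and 1.63 in EE. All of these rose in each pair while the groups overlapped. Of 16 neutrophil markers, 4 rose (0.145% of all tested genes did) and 0 fell, and 10 were higher and 0 lower in all pairs, against 11.8% and 11.8% of all tested genes. The median was 0.40, with pair medians of 0.64, 0.24 and 0.36. Without pair 1 the adjusted p was 0.057 for S100a8, 0.057 for Mpo, 0.50 for S100a9 and 0.92 for Ngp; that of Mpo was 0.35 without pair 2.

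Red cell genes were less even. Slc4a1, the anion exchanger of the red cell membrane, had 5.24, 5.41 and 2.01 CPM in SH and 9.36, 11.1 and 4.32 in EE, rising by 0.78, 0.97 and 0.94 (log2 fold change 0.97 ± 0.16 SE, edgeR adjusted p = 0.00013). Hba-a1, an alpha globin gene, had 54.1, 85.7 and 96.3 CPM in SH and 147, 166 and 59.1 CPM in EE. It rose by 1.44 and 0.95 in pairs 1 and 2 and fell by 0.70 in pair 3. Its call (log2 fold change 0.60 ± 0.13 SE, against a standard error over the pairs of 0.65) ended without pair 1 (edgeR adjusted p = 1.00), with library size alone (0.057) and with robust variance estimates (1.00). The near-identical Hba-a2 had pair changes of 1.14, 0.71 and -0.77, and how well reads of these copies were told apart was not tested. Of 14 red cell markers, 2 rose, against 0.145% of all tested genes, and 9 were higher in all pairs and 0 lower, against 11.8% each way. The median was 0.43, and it was 0.24, 0.27 and 0.83 without pairs 1, 2 and 3. The most abundant, Ank1, is also a neuronal gene and had pair changes of 0.12, 0.02 and -0.15.

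Ppbp, a platelet chemokine, had 0.53, 1.30 and 0.94 CPM in SH and 4.86, 5.37 and 1.30 CPM in EE (log2 fold change 2.02 ± 0.29 SE, edgeR adjusted p = 3.30e-06; pair changes 2.38, 1.71 and 0.33). The other platelet markers gave 0 calls among 6. Mmp13, a collagenase of cartilage and bone, had 0.18, 1.15 and 0.27 CPM in SH and 0.99, 7.28 and 0.24 in EE. EE replicate 2 carried its rise, pair 3 was at -0.04, and the gene could not be tested without pair 2. Acp5, the phosphatase of bone-resorbing cells, had 0.65, 1.66 and 0.87 CPM in SH and 2.43, 3.83 and 1.06 in EE (adjusted p = 0.052). Mki67, which marks dividing cells, rose from 4.54, 6.42 and 2.41 CPM to 9.81, 8.21 and 4.57, and its call ended without pair 1 (0.58). Of 15 cell cycle genes, Mki67 alone passed, and 6 were higher and 0 lower in all pairs, against 11.8% each way (median 0.25).

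Summed over the list, neutrophil markers gave 199, 312 and 153 CPM in SH and 284, 369 and 181 in EE. These sums were higher in EE in every pair, and replicate 3 was lowest in both housings. They include the called genes S100a8, S100a9, Ngp and Mpo, so they are no separate evidence of a rise. Blood and marrow content was not measured in another way, and its part in the changes of these genes was not tested. Adipocyte markers summed to 76.8, 124 and 118 CPM in SH and 89.3, 187 and 114 in EE, where the EE sum was higher in pairs 1 and 2 and lower in pair 3. Plin4 is on that list too. The defining fat gene Adipoq had pair changes of 0.29, 0.62 and -0.69, while Plin4 rose in all pairs; the part of fat tissue in the change of Plin4 was not tested.

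**Figure D4:**
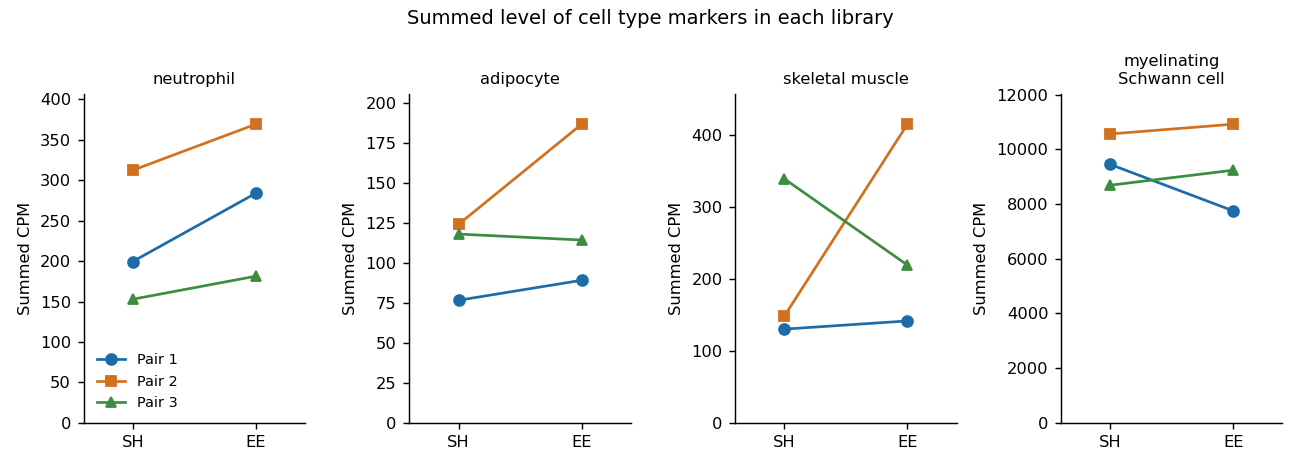
Summed CPM of the markers of 4 cell types in each library, with lines joining the libraries of 1 lane. Neutrophil sums, which include the called neutrophil genes, are higher in EE in all 3 pairs. Muscle sums go from 148 to 415 CPM in pair 2 and from 339 to 219 in pair 3.

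Skeletal muscle genes varied most of the 37 lists between pairs, without order by housing. Of 18 tested markers, 0 passed, and the pair medians were 0.28, 2.75 and -0.89. Atp2a1, the calcium pump of fast muscle, had 0.59, 2.60 and 22.4 CPM in SH and 1.98, 41.6 and 10.8 in EE. SH replicate 3 and EE replicates 2 and 3 were high, in both housings. Myh4 and Tnnt3, a myosin and a troponin of the same fibres, followed the same libraries. Pvalb, which made up 51.1% of the muscle sum and is also a gene of position-sensing neurons, had 114, 115 and 119 CPM in SH and 117, 135 and 112 in EE. So muscle-only genes, and not Pvalb, set these sums apart. Of the 32 genes, 12 had their largest change in pair 2. Among them were Thbs4, Agxt2l1 (an enzyme that breaks down phosphoethanolamine) and Dpep1 (a membrane dipeptidase), at 1.08, 0.99 and 1.19. These 3 lost their calls without pair 2 (edgeR adjusted p of 0.92, 0.97 and 0.98). In pair 3 they changed by 0.29, 0.45 and 0.26, where the muscle median was -0.89. The part of muscle content in their changes was not tested.

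Nt5e encodes CD73, which makes adenosine from AMP outside the cell and is found on pain-sensing neurons. It had 112, 101 and 115 CPM in SH and 136, 127 and 135 CPM in EE, with no overlap and even pair changes of 0.28, 0.33 and 0.23. The log2 fold change was 0.28 ± 0.07 (SE, edgeR adjusted p = 0.049), and the call ended without pair 1 (0.24), without pair 2 (0.33) and with library size alone (0.074). Id1, an inhibitor of differentiation induced by BMP signals, had 10.1, 9.09 and 12.1 CPM in SH and 14.5, 18.02 and 14.4 in EE. It was the 1 gene past the threshold among 15 BMP targets and Id genes, whose median was 0.10. The pair medians of that list were -0.003, 0.10 and -0.02, and its median was 0.02 without pair 2. For Id1 the adjusted p was 0.13 without pair 1 and 0.59 without pair 2.

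Cyr61, a matrix-associated signalling protein, had pair changes of 0.26, 0.56 and 1.04, and its adjusted p was 0.16 without pair 2 and 0.62 without pair 3. Galnt16, an enzyme that starts O-linked sugar chains, rose by 0.44, 0.56 and 0.18 in the pairs, and its adjusted p was 0.11 without pair 1 and 0.30 without pair 2. Thbs4, a thrombospondin of matrix and tendon, had 6.48, 7.65 and 9.11 CPM in SH and 8.55, 16.7 and 11.3 in EE, and also lost its call without pair 1 (0.063). Of 26 genes on a list of extracellular matrix, which does not hold Thbs4, 0 passed. Of these, 10 were lower in all pairs and 1 higher, against 11.8% each way among all tested genes, and the median was -0.05. Col3a1, Col14a1 and Nid2 had log2 fold changes of -0.25, -0.32 and -0.34, with adjusted p of 0.18, 0.53 and 0.55.

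The remaining genes that fell were of mixed function. Cxx1a, a gene derived from a retrotransposon, had 45.7, 46.1 and 48.1 CPM in SH and 35.9, 36.4 and 32.0 CPM in EE. The groups lay far apart relative to their spread (log2 fold change -0.42 ± 0.08 SE, edgeR adjusted p = 0.00084), and the call held without each pair. Near-identical copies of this gene exist on the X chromosome, so its count is uncertain. Gm16832, an RNA antisense to Uchl1, fell from 258, 225 and 303 CPM to 189, 206 and 212 (log2 fold change -0.36 ± 0.07 SE). Uchl1 itself had pair changes of -0.16, -0.06 and -0.08, and reads of the antisense RNA and of Uchl1 cannot be told apart without strand. The antisense call ended without pair 1 (0.11) and without pair 3 (0.059).

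Clk1, a kinase of splicing factors, had 58.0, 53.5 and 35.9 CPM in SH and 36.1, 36.1 and 34.7 CPM in EE. SH replicate 3 lay at the level of the EE libraries, the pair changes were -0.68, -0.56 and -0.05, and the adjusted p was 0.39 without pair 1. Sfrp4, a secreted Wnt antagonist, fell in each pair by 0.41, 0.32 and 0.55. Its adjusted p was 0.23 without pair 1 and 0.27 without pair 3. Plekha7, a protein of adherens junctions, had 24.1, 19.1 and 16.7 CPM in SH and 14.8, 16.3 and 12.8 in EE, with an adjusted p of 0.84 without pair 1. Clk1, Sfrp4 and Plekha7 were lower in EE in all pairs.

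Neuronal gene groups showed no called change. Of 22 markers of large-diameter neurons, 0 passed, 5 were lower and 1 higher in all pairs (11.8% each way among all tested genes), and the median was -0.02. The neurofilament genes were among the lower: Nefl had 4944, 5090 and 5154 CPM in SH and 4618, 4600 and 4459 in EE. Nefl, Nefm and Nefh had log2 fold changes of -0.15, -0.14 and -0.14 with groups that did not overlap, and adjusted p of 0.57, 0.70 and 0.78. Of 28 markers of pain and itch neurons, 0 passed, 4 were higher and 1 lower in all pairs (median 0.03). Scn10a, the sodium channel of nociceptors, had pair changes of 0.24, 0.04 and -0.19.

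Channels and growth genes varied by pair. Of 14 sodium, 27 potassium and 15 calcium channel genes, 0, 0 and 0 passed. The potassium channel list had pair medians of 0.09, -0.04 and -0.13, so its sign depended on the pair. Among 16 neurotrophic factor and receptor genes and 22 regeneration-associated genes, 0 and 0 passed. Atf3, induced in injured sensory neurons, had 110, 139 and 110 CPM in SH and 136, 138 and 168 in EE, with pair changes of 0.30, -0.01 and 0.61 (adjusted p = 0.061). Of 16 immediate early genes, which neurons switch on within minutes of activity, 0 passed, 5 were lower and 2 higher in all pairs, against 11.8% each way among all tested genes. Nr4a1 and Egr3 had log2 fold changes of -0.29 and -1.11 (adjusted p of 0.27 and 0.39).

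Of 10 tested mitochondrially encoded genes, 0 passed. Among them 7 were higher in all pairs and 0 lower, against 11.8% each way of all tested genes, and the median was 0.13, with pair medians of 0.10, 0.05 and 0.26. mt-Nd1, a subunit of respiratory complex I, had 4394, 3787 and 3305 CPM in SH and 4890, 3979 and 4188 in EE (adjusted p = 0.31). The groups overlapped, and replicate 1 was highest in both housings. With offsets for GC content and length the list median was 0.09, and without pair 3 it was 0.07.

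**Figure D5:**
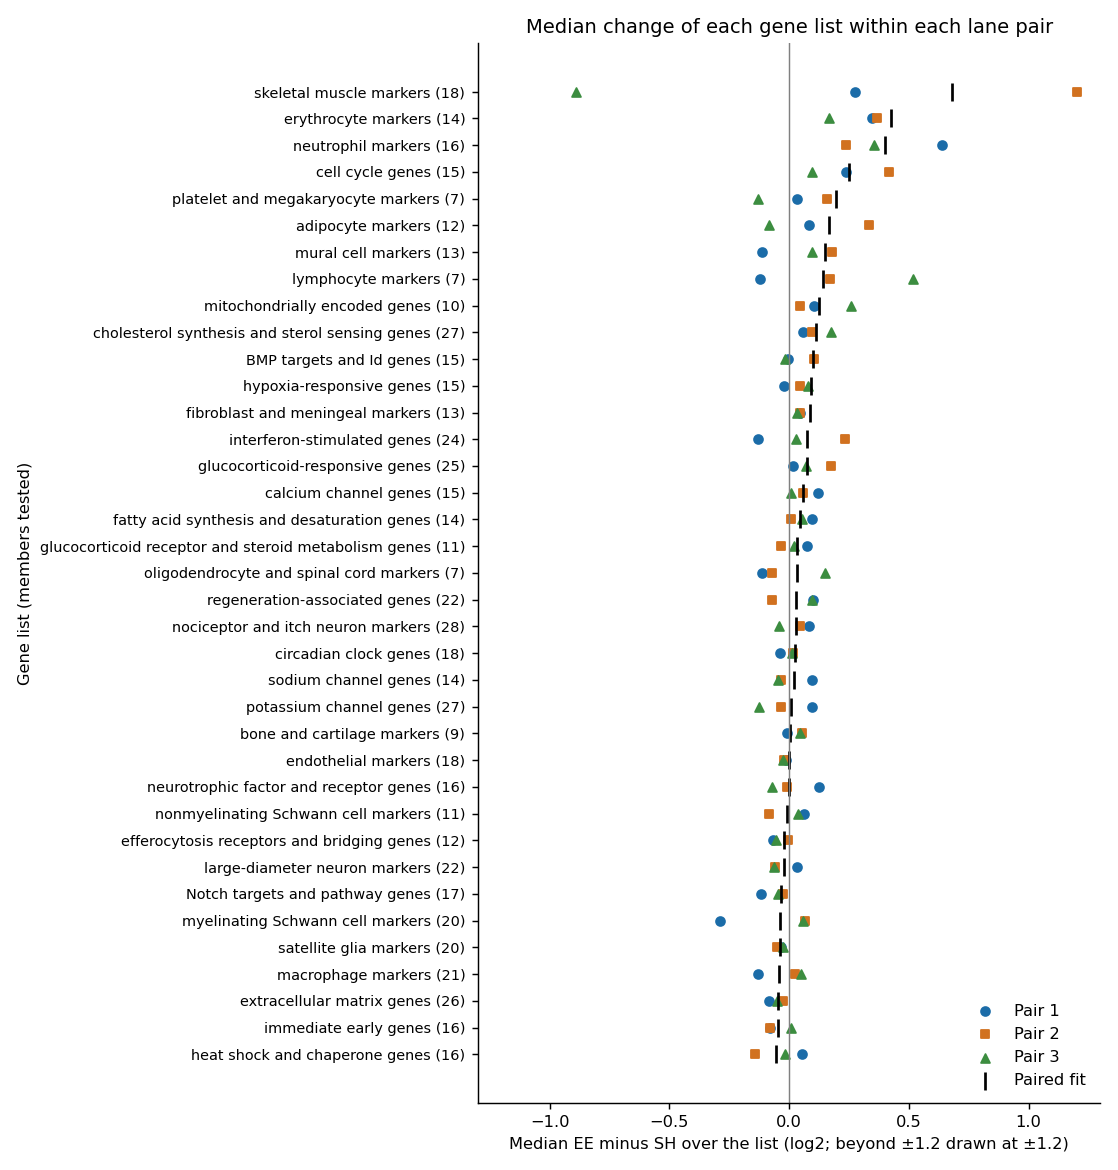
Median change (EE minus SH, log2) of each of the 37 gene lists in each lane pair (symbols) and in the paired fit (black bars), with the number of members tested. All 3 symbols stand above 0 in 9 lists (glucocorticoid-responsive, cholesterol, fatty acid, mitochondrial, calcium channel, cell cycle, fibroblast, red cell and neutrophil) and below 0 in 5, and the muscle list runs from -0.89 in pair 3 to 2.75 in pair 2, drawn at the edge.

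The changes of whole ganglia were compared with those of the laser-captured large neurons, whose libraries used another kit and were not balanced over lanes. The test of the difference between the housing effects called 0 of 17412 genes (0%) by edgeR, with 1945 at an unadjusted p under 0.05. Without captured EE replicate 1, which ran in lane 1, it called 257. Of the 32 genes, 15 had the same sign in captured neurons, where 47.0% of all 17412 genes did. An unadjusted p under 0.05 for the difference was found in 12 of the 32 and in 11.2% of all genes. The 32 were chosen for their change in whole ganglia, which itself enlarges that difference. Zbtb16 had 14.7, 7.55 and 16.98 CPM in captured SH neurons and 9.29, 9.53 and 12.8 in captured EE neurons. There its log2 fold change was -0.31, against 1.45 in whole ganglia (difference 1.76 ± 0.38 SE, adjusted p = 0.20). Nt5e was lower in captured neurons of EE mice, with 116, 131 and 118 CPM in SH and 97.7, 86.8 and 105 in EE, opposite in sign to whole ganglia (difference 0.62 ± 0.11 SE, adjusted p = 0.17). Both differences, with those of Mki67, Ngp, S100a8 and S100a9, passed when captured EE replicate 1 was left out. Captured levels of the neutrophil genes were low. Ngp had 2.17, 0.91 and 1.06 CPM in captured SH and 1.48, 0.27 and 0.099 in captured EE neurons. S100a8 had 2.82, 1.01 and 1.17 against 2.197, 0.54 and 0.199, and S100a9 3.15, 1.06 and 1.34 against 3.13, 0.49 and 0.199. The library left out held the highest captured EE level of each, so these passes rest on its removal and on low counts. Mertk had 27.1, 18.5 and 24.4 CPM in captured SH and 17.6, 22.1 and 36.6 in captured EE neurons, where the groups overlapped widely.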

How the data were processed

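RNA of whole DRG was sequenced in 6 libraries with a TruSeq mRNA kit, per the labels' protocols. The build mm10 and the tools HTSeq 0.6.0, TopHat2 2.0.12, Bowtie2 2.2.3, limma 3.22.7, edgeR 3.8.6 and SAMtools 0.1.19 are named with no role in the submitters' processing notes. The deposited count table holds raw counts of reads by gene name, and a second table the authors' FPKM values, which were used for levels between genes and as an alternative. Columns were matched by housing and number. Rows that name no gene were left out; reads outside features made up 47.0 to 47.6% and not uniquely mapped reads 8.49 to 8.99%. No 2 libraries of a group were duplicates (chi-square per degree of freedom 3.95 to 8.75).

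The count analysis used edgeR 4.0.16 (R 4.3.3) with filterByExpr, TMM and the quasi-likelihood test with replicate number as a block, with Benjamini-Hochberg adjustment at 0.05 over all tested genes. Deviations from group means correlated at 0.38, 0.20 and 0.05 within numbers, and at 0.21 between SH replicate 3 and EE replicate 2, so the pairing rests on the shared lanes. With 3 pairs an exact sign-flip test cannot go below 0.25, and none is given. Alternatives used no block, other scalings, DESeq2 1.42.0, limma 3.58.1 (voom, and log2 of FPKM plus 1 or 0.1 at a minimum mean of 1), other filters and thresholds, offsets from splines (4 degrees of freedom) of GC content and length (95.8% of genes matched), robust variance estimates (chosen after seeing the data), and leaving out pairs or libraries.

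Members and lists were chosen with earlier results of these data known. Named genes are those past the threshold and up to 4 of each list with the smallest p. The 10 highest by FPKM and the 3 leading differences between preparations were added. Per direction, the 10 genes whose smallest change over the 3 pairs was largest were added too, at an average log2 CPM of at least 1. Not all are named in the text. Adipoq, Ank1, Hes1, Hmgcs1, Pvalb, Scn10a, Sgk1, Tsc22d3 and Uchl1 were added for their roles after their values were seen. Positions are from GENCODE vM21 (GRCm38) and promoters from RefSeq (GRCm38.p6).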

Additional observations from a re-analysis of the deposited data

How the results depend on the processing

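The count of genes past the threshold, 32 with the replicate block, was 1 with no block. With the block it was 7 with DESeq2, 62 with no filter on low counts, 0 with limma on log2 FPKM plus 1 and 0 with 0.1 added (595 and 599 at an unadjusted p under 0.05). It ranged from 18 to 84 without 1 pair (18 without pair 1, 41 without pair 2, 84 without pair 3), and from 0 to 2 without 1 library and no block. DESeq2 kept Ccrn4l, Chi3l3, Gm16832, Mertk, Plin4, Stard4 and Zbtb16. Other settings gave 22 to 45 genes: 32 with DESeq2 size factors, 29 with library size alone, 33 with voom, 39 at a minimum average log2 CPM of 3, 25 with GC and length offsets, 45 with robust variance estimates, 45 at an adjusted p of 0.1 and 22 at 0.01. The share of genes with 1 sign was 50.1, 49.52 and 47.47% without pairs 1, 2 and 3, where only 2 signs remain to agree. The difference between preparations rose from 0 to 257 genes without captured EE replicate 1. Of the gene results under alternatives, 545 kept direction and side of the threshold, 103 lost the call, 20 gained it and 11 changed direction. Without pair 2, the log2 fold changes of the muscle genes Atp2a1, Myh4 and Tnnt3 turned to -0.67, -0.74 and -0.77 (edgeR adjusted p of 0.16, 0.088 and 0.0498), that of Adipoq to -0.32 and that of Pvalb to -0.022. The other changes of direction were near 0: Sgk1 at 0.011 with no block and 0.15 without pair 1, Ank1 at 0.0082 with GC and length offsets and 0.067 without pair 3, and Hes1 at -0.051 and Scn10a at -0.075 without pair 1. The cause was not tested. Of the list medians under alternatives, 199 moved by less than the spread of the pair medians and 23 by more. Lists whose pairs disagree have a wide spread, so some of the 199 changed sign. Without pair 2 the muscle median went from 0.68 to -0.75 (spread 1.86) and the adipocyte median from 0.16 to -0.03 (spread 0.21). Low counts limit what can be said of Hes5, Ppbp, Mpo and Mmp13.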

Other observations

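Other lists gave few calls. Of 24 interferon-stimulated genes, 0 passed, and the pair medians were -0.13, 0.23 and 0.03. Of 18 circadian clock genes, 0 passed, with 3 higher and 2 lower in all pairs (11.8% each way among all tested genes). Npas2, a clock activator, had 1.94, 1.37 and 1.07 CPM in SH and 2.16, 2.15 and 2.94 in EE. Bhlhe40, a clock repressor, had 27.0, 27.2 and 27.5 in SH and 33.6, 30.2 and 30.9 in EE. Neither gene had overlapping groups, and the adjusted p by edgeR was 0.59 for Npas2 and 0.66 for Bhlhe40. Of 21 macrophage markers, 0 passed, with 2 higher and 3 lower in all pairs. Cx3cr1, a chemokine receptor of macrophages, had 2.89, 2.67 and 2.28 CPM in SH and 3.24, 4.14 and 4.00 in EE (adjusted p = 0.68). Of 18 endothelial markers, 0 passed, and the tight junction gene Cldn5 had 11.7, 13.4 and 11.7 CPM in SH and 5.76, 10.9 and 8.72 in EE (adjusted p = 0.052).

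Some genes had even differences over the pairs without passing the test. Shisa6, which regulates glutamate receptors, had 5.66, 4.91 and 5.09 CPM in SH and 7.83, 6.75 and 6.85 in EE, with pair changes of 0.44, 0.42 and 0.39 (edgeR adjusted p = 0.46). Tnfaip2 had 1.71, 1.59 and 1.21 CPM in SH and 2.79, 2.45 and 2.04 in EE, with an adjusted p of 0.60. Tmem252 had pair changes of -0.70, -0.71 and -0.58 and an adjusted p of 0.18.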
